A study of Mus musculus with 7 samples.

Results

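Endothelial and angiogenesis genes were followed in mammary glands of PRA transgenics, mice that carry an additional A form of the progesterone receptor, and of wild-type mice. The set held 37 genes, taken by gene name from the array files, of 37074 gene names in all. They were carried by 63 of the 56605 probes, and 17 of the 37 genes had several probes. All 7 glands came from nulliparous FVB females of 20 to 25 weeks at diestrus, 3 of them wild-type and 4 PRA transgenic, and no treatment is given in the labels for either genotype. Each array held 1 abdominal gland of 1 animal, taken after the lymph nodes had been cut out. The PRA transgenics were bigenic, with GAL-4 under a cytomegalovirus promoter as the transactivator of a UAS-PR-A gene, and this promoter is not specific to a mammary cell type. Gland RNA carried Cy5 on every array, and a common reference, Universal Mouse Reference RNA from 11 cell lines, carried Cy3, with no dye swap.

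New vessels sprout when ligands of the VEGF family act on receptors of endothelial cells, and the angiopoietin-Tie system then controls whether the vessels mature or are destabilized. Lymphatic vessels are specified by the transcription factor PROX1 and grow in response to VEGFC through its receptor FLT4. In the mammary gland, capillaries surround the ducts and the adipocytes, and lymphatic vessels run through the stroma. In whole-gland RNA, fewer cells of a type and less RNA per cell cannot be told apart.

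RNA of most genes of the set was measured above background in both genotypes. Probes were kept whose Cy5 signal stood well above background in every gland of wild-type, of PRA transgenics or of both, which held for 52 of the 63 probes and 35 of the 37 genes. Flt4 and Sele did not pass and were not tested. The values below are log2 ratios of gland over reference, and the brightest kept probe in Cy5 stands for a gene. On this scale 31 of the 35 tested genes were above the reference on all 7 arrays. Vegfa, Vcam1 and Pdpn were below it on all 7, and Vegfc was on both sides. No endothelial line is named among the 11 of the reference, and the reference was well above background on all 7 arrays for 21 of the 35 genes, on some arrays for 11, and on none for Erg, Prox1 and Mmrn1. The residual SD within genotypes had a median of 0.29 for the 21 genes and of 0.54 for the other 14. In Cy5 alone, each array scaled to its 75th percentile, these medians were 0.33 and 0.38, so Cy5-alone values are given beside the ratios.

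Prox1 passed this filter through the wild-type glands alone, with Cy5 well above background in 1 of 4 PRA glands, so that the filter itself favored a difference. Its values are given as a description, and it is left out of the counts that follow. Of the other 34 tested genes, Mmrn1 was lower and Emcn, Angpt2 and Vegfb were higher in PRA transgenics at an unadjusted P under 0.05. These 4 of 34 genes make 11.8%, where 7.14% of 20064 gene names whose Cy5 was well above background in all 7 glands passed the same threshold, 3.55% lower and 3.59% higher. None of the 34 passed an adjusted p of 0.05 in limma, and 0.00498% of these gene names did. The difference was 1.5-fold or more for Emcn, Aplnr and Mmrn1, 8.82% of the genes against a background of 6.58%. Genotypes did not overlap for Mmrn1, Emcn, Angpt2 and Vegfb, again 11.8%, against 8.96% of gene names. The log2 fold change, PRA transgenic minus wild-type, was above 0 for 20 genes and below 0 for 14, with a median of 0.02, and the median of all kept probes was also 0.02.

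**Figure D1:**
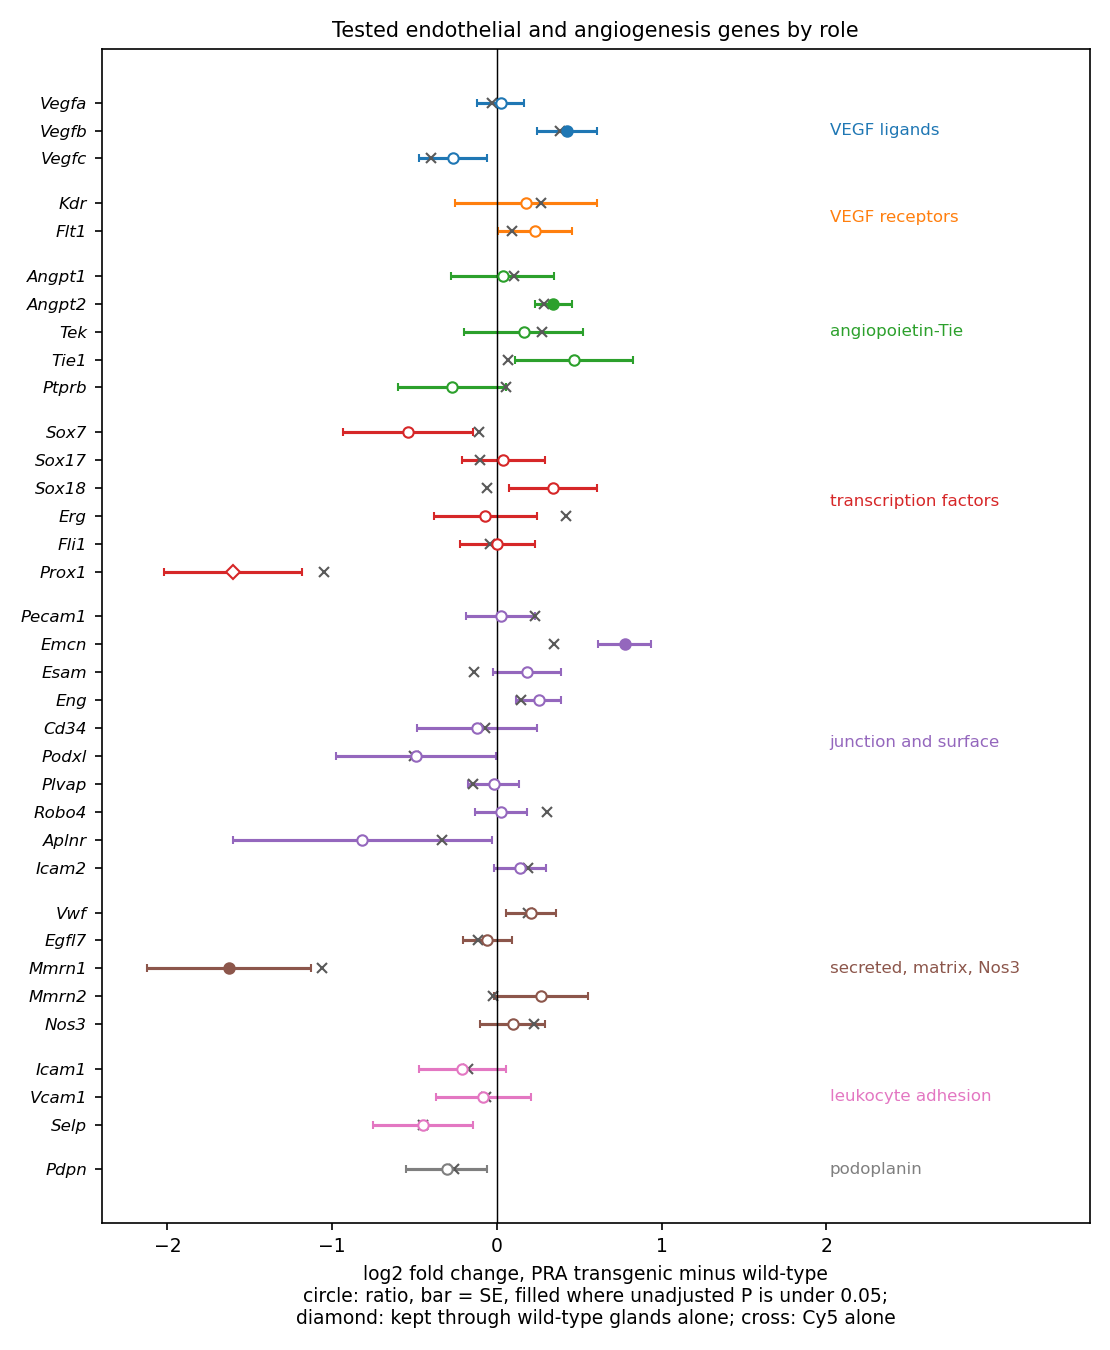
Genotype difference on the log2 scale (PRA transgenic minus wild-type) of the 35 tested genes, grouped by role. Circles are the ratio with its SE, filled where the unadjusted P is under 0.05, the diamond is Prox1, kept through wild-type glands alone, and crosses are Cy5 alone. Prox1 and Mmrn1 lie at -1.60 and -1.63 on the ratio and at -1.05 and -1.06 in Cy5 alone, and the genes other than these, Emcn and Aplnr lie within 0.54 of 0 on the ratio.

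The glands differed in ways that touch these values. Cy5 was well above background for 62.7 to 66.2% of probes on the wild-type arrays and for 56.7 to 60.2% on the PRA transgenic arrays. For Cy3 the ranges were 53.2 to 54.0% and 47.2 to 50.6%. All arrays were on 1 slide, wild-type in row 1 and PRA transgenic in row 2, so the row of the slide cannot be told apart from the genotype. Lymph node markers stood apart on the array of wild-type replicate 1, where their mean log2 ratio, centered on the median of the 7 arrays, was 2.19. On the other 6 arrays it was between -0.26 and 0.12. Skeletal muscle markers were high in wild-type replicates 1 and 3 and PRA replicate 4, with centered means of 1.90, 2.76 and 2.86, and were between -0.48 and -0.23 in the others.

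Of the genes of lymphatic vessels, Mmrn1 had the largest difference on the ratio among the 34 tested genes other than Prox1. Vegfc and Pdpn, at -0.27 and -0.30, lay among the rest, and Prox1, kept through wild-type glands alone, is not ranked. Prox1, the factor that sets lymphatic identity, was measured by a probe that is shown here with the second Prox1 probe and those of Mmrn1 and Flt4. Mmrn1 encodes multimerin 1, a secreted protein of platelets and of endothelium that is high in lymphatic vessels. Flt4 encodes the receptor for VEGFC. Each line gives the first 30 bases of the 60-base probe with its mm9 position in the files, and capitals mark AATAAA, the hexamer of a polyadenylation signal. Whether a probe lies in an exon or a UTR was not analysed here.

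Prox1 (ENSMUST00000175916), chr1:191943668-191943727, minus strand: gtgcctctgagtgttacttaattgaagtat
Prox1 (NM_008937), chr1:191946360-191946419, minus strand: agcttggccgtgtggacttagaggaaaccc
Mmrn1 (NM_027613), chr6:60938883-60938942, plus strand: tcctgtgagtctttccagtgtagAATAAAa
Flt4 (NM_008029), chr11:49465646-49465705, plus strand: agcttaccctatacttttacctgactttaa

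Of these 4 probes the hexamer was found in that of Mmrn1. It was present in 5 of the 63 probes of the set and in 9.77% of all probes.

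The log2 ratios of Prox1 were 3.61, 2.30 and 3.22 in wild-type replicates 1 to 3 and 0.94, 2.31, 1.08 and 1.41 in PRA replicates 1 to 4. PRA replicate 2 was at the level of the lowest wild-type gland, and the other PRA glands were below all wild-type glands. The means were 3.04 ± 0.67 (SD, n = 3) and 1.44 ± 0.62 (SD, n = 4). The difference of -1.60 between these means is given without a test. Cy5 was well above background in 3 of 3 wild-type glands and in 1 of 4 PRA glands, so most PRA values are near the limit of detection. The reference of this probe, below background throughout, was -6.22 to -5.99 on wild-type and -5.67 to -5.36 on PRA arrays relative to the 75th percentile. This Cy3 difference of 0.56 enters the ratio, and in Cy5 alone the difference was -1.05. With normexp background correction and loess in place of the processed signals it was -0.46. Near background, Cy5 alone is not free of such a shift. A Kdr probe (EU884114) not well above background in any gland was at -6.95 to -6.72 in wild-type and -6.21 to -5.89 in PRA glands. The ratios of that Kdr probe were -0.55 to -0.38 and -0.53 to -0.36, without such a shift. The second Prox1 probe gave 1.45, 1.19 and 1.75 in wild-type and -0.27, 2.04, 1.15 and 1.27 in PRA glands. Its genotypes overlapped, and it was well above background in 2 of 3 wild-type glands and 1 of 4 PRA glands.

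For Mmrn1 the ratios were 5.19, 4.25 and 3.65 in wild-type and 2.49, 1.83, 3.65 and 2.97 in PRA glands. The lowest wild-type gland and the highest PRA gland were both at 3.65, and the next values on either side were 4.25 and 2.97. Its log2 fold change was -1.63 with an SE of 0.50, an unadjusted P of 0.0135 and an adjusted p of 0.44. The reference of this probe, not well above background on any array, differed by 0.57, and this enters the ratio. The 3641 kept probes with such a reference had a median log2 fold change of -0.21, and of -0.07 in Cy5 alone. The median of all kept probes on the ratio was 0.02. In Cy5 alone the log2 fold change of Mmrn1 was -1.06 with an unadjusted P of 0.0863. PRA replicate 3, at -1.89, was then above wild-type replicates 2 and 3, at -1.96 and -2.58. Platelet markers overlapped between the genotypes, with a centered mean between -0.27 and 0.33 in wild-type and between -0.05 and 0.41 in PRA glands. Of the 6 platelet markers, Gp9 and Gp5 were not tested, and 1 of the other 4, Ppbp, passed an unadjusted P of 0.05, with a log2 fold change of 0.89. The summed linear Cy5 level of the 4, relative to the 75th percentile, was 18.6 to 25.2 in wild-type and 15.9 to 29.96 in PRA glands.

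Flt4 was not tested because its Cy5 signal was well above background in 2 of 3 wild-type glands and in 0 of 4 PRA glands. Its ratios were 1.39, 1.51 and 0.90 in wild-type and -0.59, -0.49, -0.42 and -0.50 in PRA glands, with a wide gap between the genotypes. The reference of this probe, not above background on any array, was -6.20 to -6.19 on wild-type and -5.82 to -5.44 on PRA arrays relative to the 75th percentile, and this difference enters the ratio. In Cy5 alone the values were -4.81, -4.69 and -5.31 against -6.05, -6.33, -6.01 and -6.34, again with no overlap. The PRA values were near those of the Kdr probe named above, so the Cy5 shift between genotypes enters here too. No fold is given, because the wild-type mean did not exceed the lowest signal that counts as well above background on the PRA arrays.

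Vegfc, the ligand of FLT4, had ratios of 0.24 to 0.27 in wild-type and of -0.39 to 0.40 in PRA glands, and its log2 fold change of -0.27 had an unadjusted P of 0.243. In Cy5 alone the difference was -0.40 with an unadjusted P of 0.038, although 1 of its 3 kept probes had the opposite sign on the ratio, at 0.21. Pdpn, a mucin of lymphatic endothelium that basal epithelium also makes, was between -1.95 and -1.40 in wild-type and between -2.51 and -1.72 in PRA glands. Its log2 fold change was -0.30 with an unadjusted P of 0.252. For both Vegfc and Pdpn the genotypes overlapped. Mmrn1, Vegfc and Pdpn, the lymphatic genes of the set with Cy5 well above background in every gland, had a median of -0.30 on the ratio and of -0.40 in Cy5 alone.

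The 8 other lymphatic genes did not share a direction. Their median log2 fold change was 0.05, with 4 genes above 0 and 4 below. All were tested. Foxc2, with Cy5 well above background in 2 of 4 PRA glands, passed the filter through the wild-type glands alone, as Prox1 did. It is included in the counts, median and means of these 8 genes. Of the 8, 1 passed an unadjusted P of 0.05, where 7.14% of gene names did. This was Lyve1, a hyaluronan receptor of lymphatic endothelium and of some macrophages. Its ratios were 7.65, 6.17 and 6.89 in wild-type and 4.83, 5.86, 5.47 and 6.55 in PRA glands. PRA replicate 4 was above wild-type replicate 2, so the genotypes overlapped. Lyve1 had a log2 fold change of -1.23 with an SE of 0.47, an unadjusted P of 0.0352 and an adjusted p of 0.515, and Cy5 alone gave -0.63 with an unadjusted P of 0.175. Ccl21a, a chemokine of lymphatic endothelium, differed by -0.21, Reln, the gene of a secreted glycoprotein of collecting vessels, by -0.49, and Itga9, an integrin of lymphatic valves, by 0.21. Averaged over the 8 genes, the log2 ratio centered on the 7-array median was 0.08, -0.01 and 0.10 in wild-type and -0.08, -0.30, -0.07 and 0.03 in PRA glands, overlapping.

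**Figure D2:**
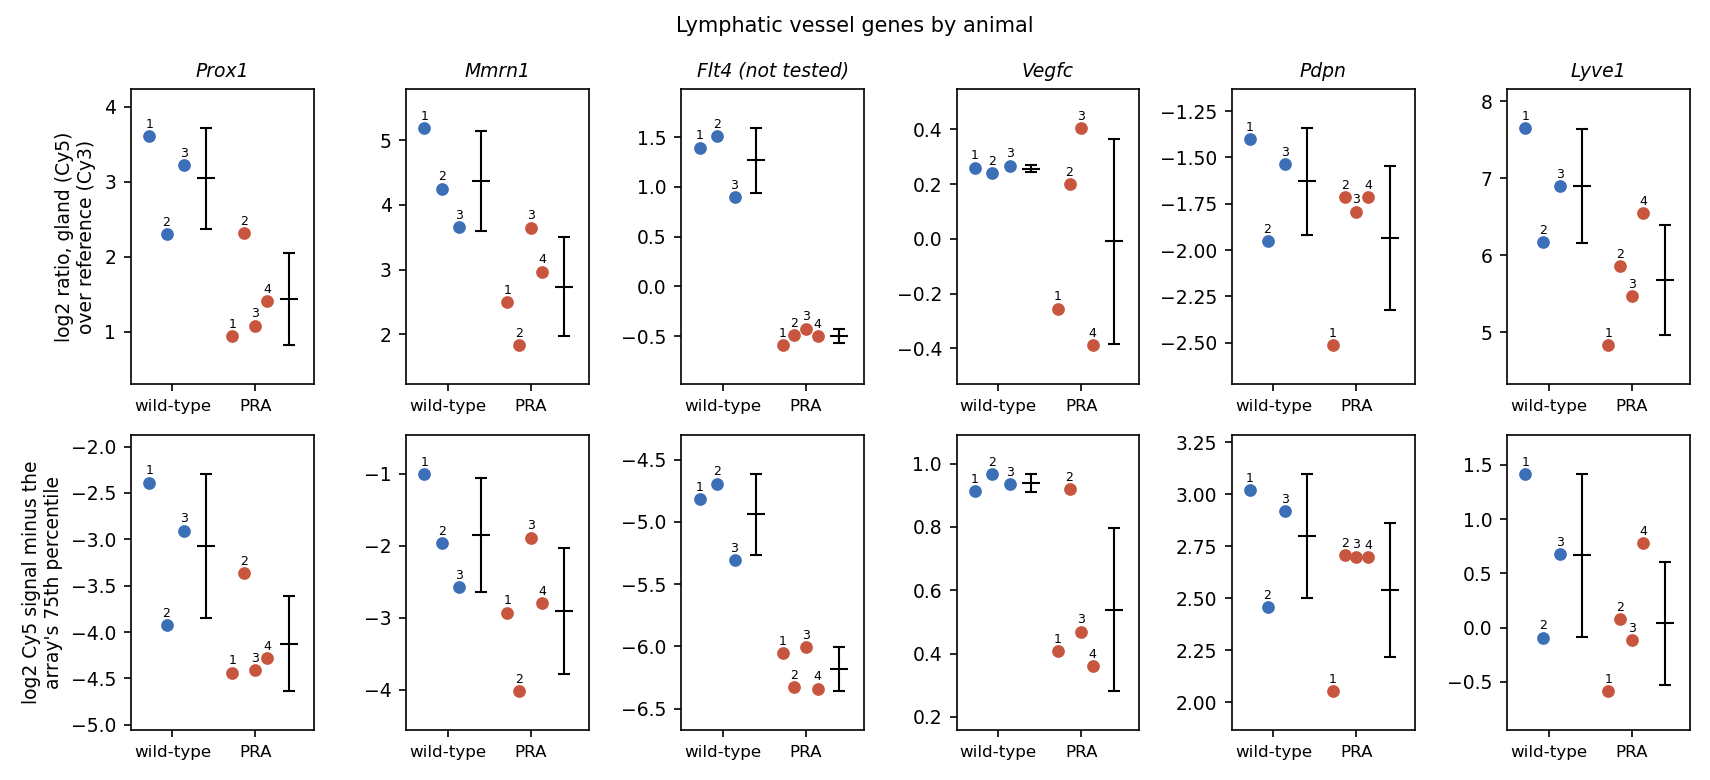
Lymphatic vessel genes by animal, with the log2 ratio in the upper row and log2 Cy5 minus the 75th percentile of the array in the lower row. Points are glands numbered by replicate, and bars are the mean with SD (wild-type in blue, PRA transgenic in red). Flt4 has a gap between genotypes in both rows, and Prox1, Mmrn1 and Lyve1 have less separation in Cy5 alone than on the ratio.

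Wild-type replicate 1, the gland with the lymph node markers, was the highest of the 7 for Prox1, Mmrn1, Pdpn and Lyve1. Vegfc was highest on the ratio in PRA replicate 3. Of 9 lymph node markers, 7 were tested, and their summed linear Cy5 level was 15.8 in this gland, 1.51 and 1.62 in the other wild-type glands and 1.51 to 3.50 in PRA glands. Madcam1, an addressin of vessels in lymphoid tissue, and Fcer2a were not kept. Without wild-type replicate 1 the log2 fold changes were -1.32 for Prox1, -1.22 for Mmrn1 (unadjusted P of 0.0493) and -0.85 for Lyve1 (unadjusted P of 0.126). For Pdpn the value was then -0.19 (unadjusted P of 0.526). Flt4 was higher in wild-type replicate 2 than in replicate 1. Skeletal muscle markers, of which 9 of 10 were tested, had a summed Cy5 level of 39.7, 2.92 and 246.4 in wild-type replicates 1 to 3, against 4.06, 6.72, 4.04 and 85.8 in PRA replicates 1 to 4. Their part in the Prox1 values was not tested.

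Over 24 genes expressed by blood vessel endothelium the median log2 fold change was 0.12, with 16 genes above 0 and 8 below. At an unadjusted P under 0.05, 2 were higher, Emcn and Angpt2, and 0 were lower. These make 8.33% of the 24, near the 7.14% of gene names that passed. Averaged over the 24 genes, the centered log2 ratio was -0.14, 0.10 and -0.08 in wild-type and 0.12, -0.21, 0.13 and 0.03 in PRA glands. The genotypes overlapped. Mmrn1, Vegfc and Pdpn averaged 0.62, 0.12 and 0.07 in wild-type and -0.82, -0.62, 0.03 and -0.44 in PRA glands, so that wild-type replicate 3 and PRA replicate 3 were next to each other. Medians over the 3 genes, on which Mmrn1 weighs less, were 0.32, 0 and 0.03 in wild-type and -0.80, -0.04, 0 and -0.63 in PRA glands. Other cells also make Vegfc and Pdpn. In Cy5 alone the means of the 3 genes overlapped, at 0.08 to 0.63 in wild-type and -0.50 to 0.08 in PRA glands, PRA replicate 3 being just above wild-type replicate 3. In Cy5 alone single glands stood out across the blood vessel genes. Wild-type replicate 2 was the highest of the 7 arrays for 15 of the 24 genes, and wild-type replicate 1 the lowest for 12.

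**Figure D3:**
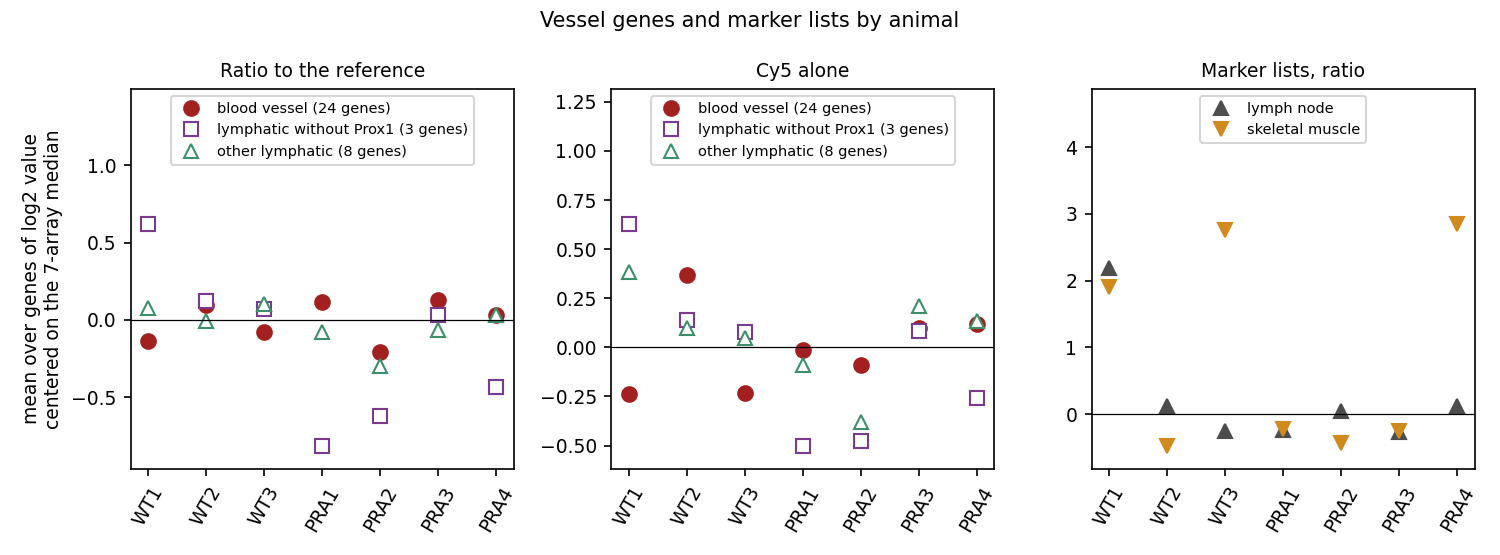
Mean over 24 blood vessel genes, 3 lymphatic genes of the set (Mmrn1, Vegfc and Pdpn) and 8 other lymphatic genes in each gland, centered on the 7-array median, for the log2 ratio (left) and Cy5 alone (middle), with the means of lymph node and skeletal muscle markers (right). Means of the 3 lymphatic genes are below 0 in PRA replicates 1, 2 and 4 and near those of wild-type replicates 2 and 3 in PRA replicate 3, and blood vessel means lie on both sides of 0 in either genotype.

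Promoters are shown for Prox1, Mmrn1 and Emcn, with motifs of the ETS and SOX families to which endothelial regulators such as ERG, FLI1 and SOX18 belong. RefSeq promoters of GRCm38.p6 were found for 20 of the 37 genes, with 26 starts, and each line holds the 250 bases before the start. Capitals mark GGAAG, which extends the ETS core GGAA, and AACAAT, a SOX site, on either strand (CTTCC and ATTGTT). The core GGAA followed by another base is not marked or counted. No base can belong to both an ETS and a SOX match.

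Prox1 start 1, chr1:190170828-190171077, minus strand: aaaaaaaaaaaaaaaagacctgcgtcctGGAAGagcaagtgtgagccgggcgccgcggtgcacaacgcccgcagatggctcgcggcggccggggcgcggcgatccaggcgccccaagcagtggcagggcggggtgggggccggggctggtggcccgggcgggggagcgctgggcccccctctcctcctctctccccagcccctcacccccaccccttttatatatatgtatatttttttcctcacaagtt
Prox1 start 2, chr1:190169516-190169765, minus strand: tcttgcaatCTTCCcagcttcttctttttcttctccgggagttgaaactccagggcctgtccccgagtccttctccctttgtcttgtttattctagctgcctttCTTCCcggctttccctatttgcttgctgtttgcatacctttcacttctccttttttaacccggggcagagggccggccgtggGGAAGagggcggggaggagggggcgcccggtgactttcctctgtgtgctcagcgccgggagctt
Mmrn1 start 1, chr6:60944067-60944316, plus strand: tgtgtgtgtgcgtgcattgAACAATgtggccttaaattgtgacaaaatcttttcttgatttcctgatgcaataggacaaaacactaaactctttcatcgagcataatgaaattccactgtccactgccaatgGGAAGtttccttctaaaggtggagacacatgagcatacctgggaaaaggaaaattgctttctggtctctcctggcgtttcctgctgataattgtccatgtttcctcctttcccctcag
Emcn start 1, chr3:137340828-137341077, plus strand: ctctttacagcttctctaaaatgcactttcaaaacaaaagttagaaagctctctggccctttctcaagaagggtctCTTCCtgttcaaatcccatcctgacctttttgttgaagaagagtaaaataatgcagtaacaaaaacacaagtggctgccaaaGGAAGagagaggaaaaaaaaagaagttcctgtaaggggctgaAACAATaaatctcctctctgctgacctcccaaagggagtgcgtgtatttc

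The letters GGAAG, on either strand, were present in 20 of the 26 starts, against 64.1% of all 32851 promoters of this length. The SOX letters were present in 4 of the 26, those of Emcn, Tek, Mmrn1 and the third start of Erg, against 9.42% of all promoters. Mmrn1, lower in PRA glands, and Emcn, higher, each held both motifs, whereas neither Prox1 start held the SOX letters.

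Emcn encodes endomucin, a sialomucin on the surface of capillaries and veins. Its ratios were 5.99, 5.97 and 6.26 in wild-type and 6.60, 6.85, 6.80 and 7.13 in PRA glands, all PRA values being above all wild-type values. For Emcn the log2 fold change was 0.78 with an SE of 0.16, an unadjusted P of 0.00171 and an adjusted p of 0.33. The reference was well above background for this probe on 1 of 7 arrays. In Cy5 alone, where the values were 2.28, 2.85 and 2.09 in wild-type and 2.59, 2.47, 2.93 and 3.00 in PRA glands, the genotypes overlapped. The difference there was 0.35 with an unadjusted P of 0.161, and Cy3 alone differed by -0.42. The probes of the 3 genes that were higher in PRA glands are shown with their mm9 positions, again as the first 30 bases.

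Emcn (NM_016885), chr3:137093811-137093870, plus strand: aacatgccgtagttgagtttagactttcca
Angpt2 (NM_007426), chr8:18690323-18690382, minus strand: ccagctaactccagagtgaagaactctgtc
Vegfb (NM_011697), chr19:7057245-7057304, minus strand: tgcttttatggccctgcttcacagggagaa

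Angpt2 encodes the angiopoietin that endothelial cells release and that can oppose ANGPT1 at the TEK receptor. Its ratios were 0.45, 0.37 and 0.35 in wild-type and 0.77, 0.82, 0.58 and 0.77 in PRA glands, with no overlap and with an SD of 0.05 and 0.11. Angpt2 had a log2 fold change of 0.34 with an SE of 0.11, an unadjusted P of 0.0185 and an adjusted p of 0.463. Cy3 was well above background on all 7 arrays, and Cy5 alone gave 0.29 with an unadjusted P of 0.0939. The other genes of the system differed by less than their spread on their brightest probes. Tek, the receptor, was at 4.42, 3.96 and 4.49 in wild-type and 5.38, 3.81, 4.22 and 4.41 in PRA glands, overlapping, with a log2 fold change of 0.16 and an SE of 0.36. PRA replicate 1 had the highest ratio for Tek but the second lowest Cy5 signal, 0.06, and the lowest reference, -5.29. Angpt1, the activating ligand, differed by 0.04, Tie1, the partner of TEK, by 0.47 and Ptprb, the phosphatase that acts on TEK, by -0.27, with unadjusted P of 0.914, 0.231 and 0.434.

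Vegfb, a ligand of FLT1, had ratios of 0.42, 0.36 and 0.02 in wild-type and 1.06, 0.49, 0.66 and 0.57 in PRA glands. The genotypes did not overlap, but the gap between wild-type replicate 1 and PRA replicate 2 was small. The log2 fold change was 0.43 with an SE of 0.18, an unadjusted P of 0.0499 and an adjusted p of 0.554. In Cy5 alone it was 0.38 with an unadjusted P of 0.1004, and PRA replicate 2, at 2.40, was below wild-type replicate 1, at 2.49. Vegfa, the main ligand of KDR, was at -0.49, -0.13 and -0.39 in wild-type and -0.17, -0.51, -0.22 and -0.36 in PRA glands. These ranges coincided, and the log2 fold change was 0.02 with an SE of 0.14.

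Kdr, the principal signaling receptor for VEGFA, had 3 probes, shown because they read different parts of the locus. The kept probe is the 3'-most of them, and the other 2 lie 24.1 and 28.3 kb upstream of it, the first on a separate transcript record (EU884114) that has the AATAAA hexamer in capitals.

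Kdr (NM_010612), chr5:76329309-76329368, minus strand: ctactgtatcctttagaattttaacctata
Kdr (EU884114), chr5:76353385-76353444, minus strand: ttgtggaattggagggaAATAAAtcctcta
Kdr (ENSMUST00000149573), chr5:76357639-76357698, minus strand: gtacaataacatgcaaaggtatatcaaagg

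Neither upstream probe was well above background in Cy5 on any of the 7 arrays. The kept probe had ratios of 8.002, 6.44 and 6.67 in wild-type and 7.96, 6.89, 6.99 and 7.01 in PRA glands. Replicate 1 of each genotype stood above the others on the ratio. In Cy5 alone the values were 2.47, 3.12 and 2.33 in wild-type and 2.93, 2.78, 3.10 and 2.81 in PRA glands, and neither replicate 1 was the highest. The reference was well above background on 1 of 7 arrays and lowest in these same glands, at -5.53 and -5.01. Kdr thus had a log2 fold change of 0.18 with an SE of 0.43 on the ratio and 0.27 in Cy5 alone, with unadjusted P of 0.696 and 0.232.

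Flt1 encodes the VEGF receptor that also acts as a decoy. Its ratios were 1.31, 2.09 and 1.41 in wild-type and 1.81, 1.69, 2.15 and 1.69 in PRA glands, and the genotypes overlapped. The log2 fold change was 0.23 with an SE of 0.225 and an unadjusted P of 0.337. The other 2 kept probes, 75.1 and 76.9 kb upstream, gave -0.17 and -0.25, the opposite sign.

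**Figure D4:**
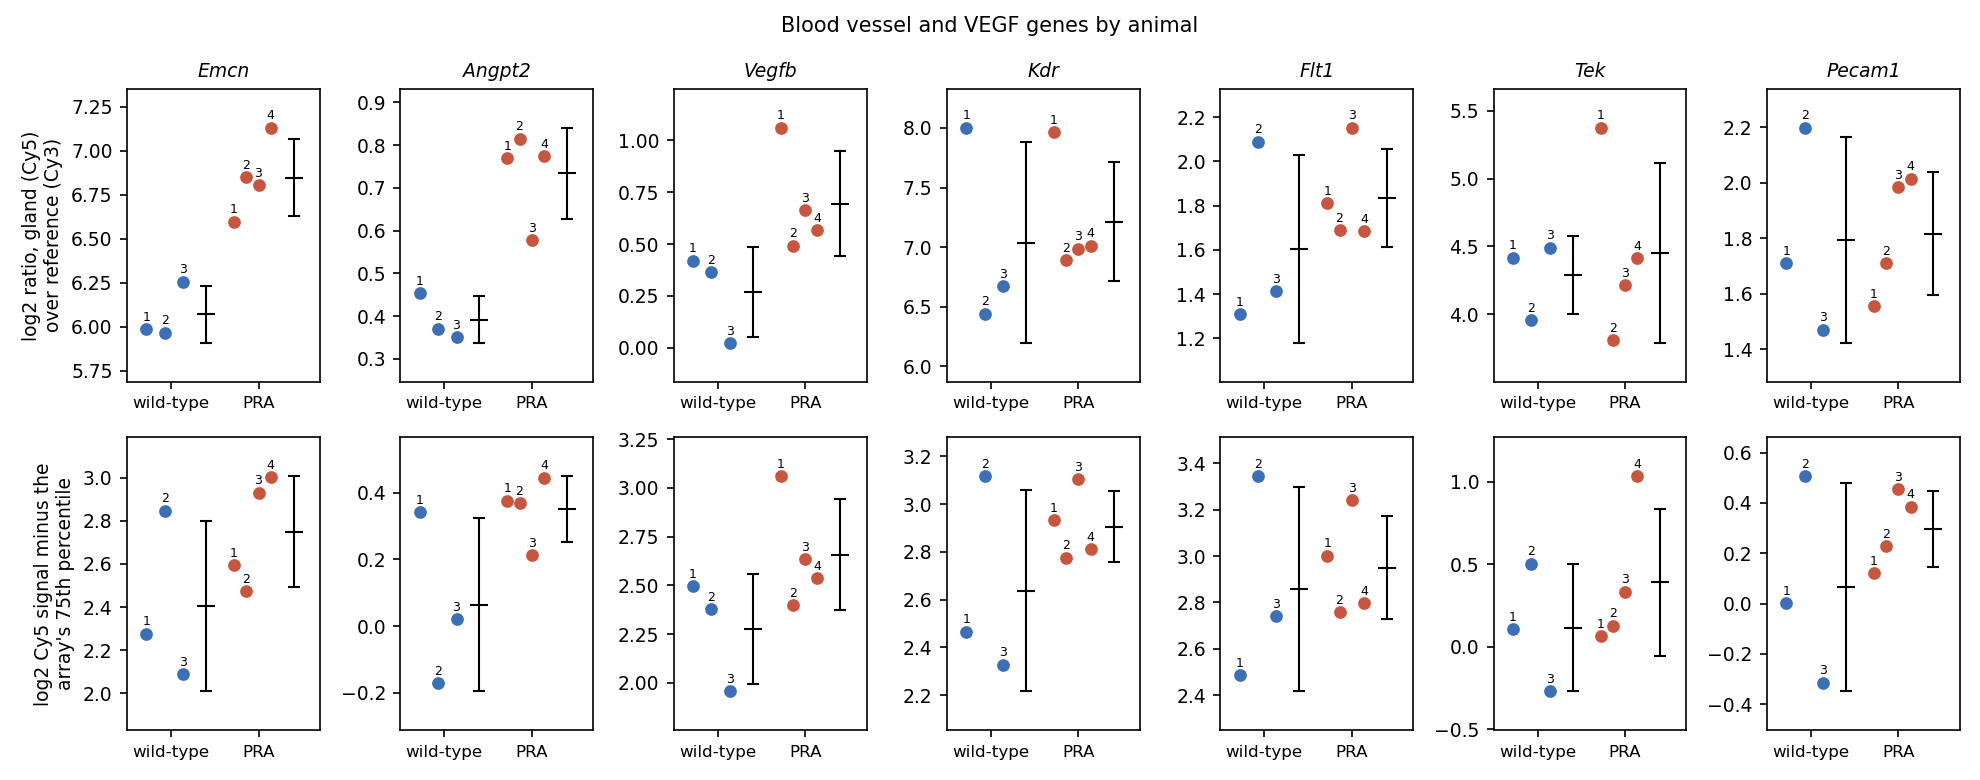
Emcn, Angpt2, Vegfb, Kdr, Flt1, Tek and Pecam1 by animal, with the log2 ratio above and log2 Cy5 minus the 75th percentile of the array below. Points are glands numbered by replicate, and bars are the mean with SD (wild-type in blue, PRA transgenic in red). For Emcn, Angpt2 and Vegfb the genotypes are apart on the ratio and overlap in Cy5 alone, and for Kdr the 2 glands near 8.0 are not the highest in Cy5.

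Among junction and surface genes, Pecam1, the adhesion molecule CD31 used to count vessels, was at 1.71, 2.20 and 1.47 in wild-type and 1.55, 1.71, 1.98 and 2.01 in PRA glands. The genotypes covered the same range, and the log2 fold change was 0.02 with an SE of 0.21. Aplnr, the apelin receptor of sprouting vessels, was at 4.13, 4.72 and 4.02 in wild-type and 1.45, 3.07, 4.63 and 4.74 in PRA glands. PRA replicates 1 and 2 were low and the others were within or just above the wild-type range, so that its log2 fold change of -0.82 had an SE of 0.79 and an unadjusted P of 0.332. Without PRA replicate 1 it was -0.14, and in Cy5 alone -0.33. In Cy5 alone 6 of the 7 glands were between -1.09 and -0.81, with wild-type replicate 2 at 0.09, whereas the reference was -2.52 in PRA replicate 1 and -5.59 in PRA replicate 4. Eng, a co-receptor of TGF-beta family ligands, differed by 0.25 on its brightest probe and by -0.71 on a second kept probe, with unadjusted P of 0.106 and 0.00574. The reference of this second Eng probe was below that level throughout and differed by 0.63, and Cy5 alone gave -0.09. Of the remaining genes of this role, Esam, Cd34, Plvap, Robo4 and Icam2 differed by -0.12 to 0.18 and Podxl by -0.49, none at an unadjusted P under 0.05.

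Of the transcription factors other than Prox1, Sox7 had a log2 fold change of -0.54, Sox17 of 0.04 and Sox18 of 0.34. Erg and Fli1, ETS factors that maintain endothelial identity, differed by -0.07 and 0.00. Sox17 had a second kept probe at -0.81, with an unadjusted P of 0.0328 on the ratio and a difference of -0.20 in Cy5 alone. Among secreted and matrix genes and nitric oxide synthase, Vwf, the carrier of factor VIII, differed by 0.21, Egfl7 by -0.06, Mmrn2 by 0.27 and Nos3 by 0.10. None of these 9 genes passed an unadjusted P of 0.05 on its brightest probe. For 23 genes of the set, Flt4 and Sele aside, not every array is given here. On their brightest probes the fold changes ran from -0.54 for Sox7 to 0.47 for Tie1, with a lowest unadjusted P of 0.106. Other kept probes of Eng, Sox17, Ptprb and Selp lay below this range.

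The leukocyte adhesion molecules of activated endothelium were each below 0 without passing the test. Vcam1, the ligand of integrin VLA-4, was at -1.12, -1.39 and -0.60 in wild-type and -1.61, -0.59, -0.99 and -1.30 in PRA glands, overlapping, with a log2 fold change of -0.08 and an SE of 0.29. Icam1, the ligand of LFA-1, differed by -0.21 and Selp, P-selectin, by -0.45, with unadjusted P of 0.451 and 0.185. Second kept probes of Vcam1 and Icam1 had the opposite sign, at 0.29 and 0.07. The 3 kept probes of Selp ran from -1.53 to -0.05, none at an unadjusted P under 0.05. Sele, E-selectin, did not reach a signal well above background in any gland. Of 7 NF-kappaB target genes, feedback inhibitors and chemokines among them, all were below 0, as were 47.3% of 22503 gene names with a kept probe. The chemokines Cxcl1 and Ccl2, 2 of the 7, were lower at an unadjusted P under 0.05, as were 3.55% of gene names. No feedback inhibitor passed, and a link to the adhesion molecules was not tested. The study had already reported a set of TNFA signaling via NFKB, and Ccl2 within it, as lower in these same glands. The counts for the 7 genes are therefore not independent of the choice of list.

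In the wider pathway, 25 other endothelial genes were tested, with a median log2 fold change of 0.06. Of these, 2 were higher at an unadjusted P under 0.05, Tmem204 and Gpihbp1, and 0 were lower. Of all gene names, 3.59% were higher and 3.55% lower at this threshold. Tmem204, the gene of a membrane protein of endothelial junctions, was at 3.13, 3.41 and 3.26 in wild-type and 5.57, 4.49, 5.65 and 4.39 in PRA glands. All PRA glands were above all wild-type glands, and the log2 fold change was 1.76 with an SE of 0.35, an unadjusted P of 0.0015 and an adjusted p of 0.33. Cy5 alone gave 0.75 with an unadjusted P of 0.00345, and the reference, well above background on 1 of 7 arrays, differed by -0.99. Gpihbp1, which carries lipoprotein lipase to the capillary lumen, differed by 0.44. Cdh5 and Cldn5, which encode the adherens junction cadherin and a tight junction claudin, differed by -0.55 and -0.31 with unadjusted P of 0.314 and 0.51.

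Of 22 other angiogenesis genes, 21 were tested, Hey2 being the exception, with a median of 0.04. At an unadjusted P under 0.05, 2 were lower, Thbs1 and Gja4, and 0 were higher, where 7.14% of gene names passed in either direction. Thbs1 encodes thrombospondin 1, an inhibitor of angiogenesis, and its ratios were -1.63, 0.58 and -0.19 in wild-type and -2.44, -1.08, -2.64 and -1.29 in PRA glands. Wild-type replicate 1 was within the PRA range. The log2 fold change was -1.45 with an SE of 0.61, an unadjusted P of 0.0468 and an adjusted p of 0.542, and it was -1.49 in Cy5 alone. Gja4, an arterial connexin, differed by -0.50. Of 12 immediate-early genes 9 were lower at an unadjusted P under 0.05, as were 3.55% of gene names, and the median was -0.65. The study had already reported several of the 12 as lower from these same glands, among them Egr1, Fosb and Junb. The count is therefore not independent of the choice of list.

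Other cell types were compared through markers, beside the 7.14% of gene names that passed an unadjusted P of 0.05. Of 10 pericyte markers, all tested, 1 was lower at an unadjusted P under 0.05, Kcnj8, with a log2 fold change of -1.02 on the ratio and of -0.24 in Cy5 alone. Of 8 tested leukocyte markers 0 passed, with a median of -0.16. Every adipocyte, luminal, basal and fibroblast marker was kept, and these lists had medians of 0.13, -0.19, 0.11 and -0.10, with 1 of 9, 1 of 10, 0 of 8 and 1 of 8 at an unadjusted P under 0.05.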

How the data were processed

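RNA of 7 mammary glands, 3 wild-type and 4 PRA transgenic, was hybridized against a common reference, with 1 animal per array. For each array the authors deposited scanner output with processed intensity values, from which background had been subtracted and which had been dye-normalized in Agilent Feature Extraction (version 12.0 per the submitters' processing notes). The authors also deposited a table of log2 ratios, found to be the ratio of these intensities centered on the 7-array median of each probe, and it served as an alternative.

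The log2 ratio of processed Cy5 to Cy3 was computed, control and outlier-marked spots were left out, and spots of a probe were averaged. No spot was saturated. Of 56605 probes, 34288 were kept, and limma 3.58.1 (lmFit, eBayes) in R 4.3.3 was fitted to all of them with Benjamini-Hochberg adjustment. The steps were tested on simulated data. The number of arrays limits the precision, and p-values measure the spread between these animals. Probe positions are those of the files (mm9), and promoters are from RefSeq (GRCm38.p6). Full values are given for genes with an unadjusted P under 0.05, 1.5-fold or more, or genotypes that did not overlap, and for Pecam1, Kdr, Flt1, Tek, Vegfa, Prox1, Flt4 and Vcam1. Genes of the other pathway lists are named in full at an unadjusted P under 0.05 with 1.5-fold or more, and other genes named were chosen after their values were seen. The members, the gene lists and the marker lists were chosen with earlier results of these data known. Alternatives were no filter, a filter on both channels, a filter on Cy5 in all 7 glands (chosen after seeing the data), normexp (offset 50) with loess, the deposited table, quantile normalization, Cy5 alone, the median of a gene's probes, the methods' t-test, the replicate number as a block and each array left out.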

Additional observations from a re-analysis of the deposited data

Results flagged for a closer look

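In 3 of the 40 groups of 4 PRA transgenic values examined, 1 gland stood apart by Dixon's criterion (the gap to the nearest gland divided by the range), and chance flags about 1 in 20 groups, or 2.0 here. For Kdr the value was 0.8888, with PRA replicate 1 at a log2 ratio of 7.96 and the others between 6.89 and 7.01. For Icam2, an adhesion molecule of resting endothelium, it was 0.9314, with PRA replicate 4 at 1.91 and the others between 2.18 and 2.20. For Pdpn it was 0.9025, with PRA replicate 1 at -2.51 and the others between -1.79 and -1.72. Groups of 3 wild-type glands were not tested in this way.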

How the results depend on the processing

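None of the tested genes of the set passed an adjusted p of 0.05 under any alternative. Counts and medians of this section include Prox1 wherever it was kept, unless stated, although the filter favored its difference. The count of genes lower at an unadjusted P under 0.05 was 2 with Prox1 and 1, Mmrn1, without it. It was 1 when Cy5 had to be above background in all 7 glands, a filter chosen after seeing the data that removes Prox1, 4 with no filter (Flt4 and Sele included, both below background in every PRA gland), 0 when both channels had to be above background on all arrays (21 genes tested, without Prox1 and Mmrn1) and 1 with normexp and loess. The count of higher genes was 3, and 0 in Cy5 alone. The lymphatic median, -0.95 over 4 genes with Prox1, was -0.30 without it (3 genes, under that same filter), -1.60 with no filter (5 genes, with Flt4), -0.29 with both channels (2 genes) and -0.40 with normexp and loess. Leaving out 1 array gave 2 to 3 lower genes, Prox1 among them, and 2 to 4 higher genes. The blood vessel median was then 0.00 to 0.23 and the lymphatic median, with Prox1, -1.07 to -0.74. The filter favored Prox1 in each of these fits. The count of lower genes and the lymphatic median therefore do not show stability without it.

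Prox1, kept through wild-type glands alone, was at -0.46 with normexp and loess, at -1.05 in Cy5 alone and between -1.98 and -1.32 with 1 array left out. Mmrn1 lost its unadjusted P under 0.05 with normexp and loess (-0.61) and in Cy5 alone, as did Emcn (0.34 with normexp and loess). Angpt2 lost it in 5 of 17 alternatives, among them without wild-type replicate 2 or 3 or PRA replicate 2, and Vegfb in 10 of 17, among them without any 1 array other than PRA replicate 2. Flt1 passed it without wild-type replicate 2, at 0.47. Genes near 0 changed sign, Vegfa to -0.031 in Cy5 alone, and Flt1 to -0.17 and Vcam1 to 0.10 with the median of a gene's probes. With 1 array left out, Pecam1 ran from -0.14 to 0.22, Kdr from -0.12 to 0.66, Aplnr from -1.24 to -0.14 (without PRA replicate 1), Flt1 from 0.08 to 0.47, Tek from -0.14 to 0.38, Vegfa from -0.052 to 0.12 and Vcam1 from -0.26 to 0.14. The cause was not tested. Other alternatives left direction and side of the threshold as reported for these genes.

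Deviations of same-numbered glands had r of 0.10, -0.30 and 0.04, and those of wild-type replicate 3 and PRA replicate 2 had 0.38. The main fit did not pair the samples. With so few glands this check cannot exclude a pairing. With the replicate number as a block the counts were 2 lower and 2 higher, Pecam1 was -0.044, and Angpt2 was 0.33 with an unadjusted P of 0.0881. A block for the slide was not possible with 1 slide. Signal over background limits the values of Prox1, Flt4 and Sele.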
